A study of Mus musculus with 8 samples.

Results

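The 8 genes described here encode chromatin proteins, grouped here as linked to DNA replication. They are the chromatin factors Hells, Uhrf1, Chaf1b, Nasp, Atad2 and Actl6a, and the linker histones H1f1 and H1f5. The files list these histones as Hist1h1a and Hist1h1b. All 8 genes were chosen by name from the authors' deposited table of changed probesets. The difference between the sorted fractions thus chose them, and every such difference below is a description without a test. They are 8 of the 482 genes that could be named, and 8 of the 23332 probesets measured. The values are from 1-channel Affymetrix GeneChip arrays hybridised with RNA of spleen cells sorted for CD11b and Gr1, the surface phenotype of mouse myeloid-derived suppressor cells.

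The sort then separated CD38high from CD38low cells, CD38 being a surface enzyme that consumes NAD. Each fraction had 4 arrays, from 3 single mice (mice 1, 2 and 3) and from a pool of spleen cells of 3 mice that was made before sorting. All mice were 12-month-old L2-Cre;p120f/f animals on a mixed C57BL/6x129 background with esophageal tumors, so both fractions share the transgene, the floxed p120 alleles and the tumor. The L2 promoter drives Cre in squamous epithelium, and p120 is the p120 catenin gene, so the deletion is aimed at the epithelium and not at the sorted cells. The Cre line, the tumor and the age did not vary between the groups, and no tumor-free animals were analysed here. The labels do not say whether the pooled mice were others than mice 1 to 3.

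Chromatin has to be rebuilt behind every replication fork. Histone chaperones carry newly made histones to the fork and place them on the new DNA, remodelling enzymes shift nucleosomes so that methylation can be copied to the new strand, and linker histones then bind the DNA between nucleosomes. Most of these genes are transcribed when cells enter S phase, many through E2F factors, and the replication-dependent histone genes give messages that end in a stem-loop in place of a poly(A) tail. In the myeloid lineage, early granulocyte precursors divide and maturing neutrophils do not.

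The arrays gave log2 values with medians between 6.92 and 7.10. The Cd38 transcript followed the sort, at 12.43, 12.54, 12.60 and 12.25 in CD38high cells of mouse 1, mouse 2, mouse 3 and the pool, against 10.74, 10.90, 10.56 and 9.63 in the CD38low cells of the same sources. The log2 difference was 2.00 ± 0.26 (SE, n = 4 each), which checks the labels and is no finding, since the cells were sorted on this protein. Itgam, Ly6g and other genes that define CD11b+Gr1+ cells could not be located by name.

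All 8 genes were lower in CD38high cells, by 2.22-fold for Chaf1b to 5.76-fold for Hells. In each of the 8, the highest CD38high array lay below the lowest CD38low array, and each was lower in 4 of 4 pairs. Across all probesets, 9.37% had every CD38high array below every CD38low array and 17.0% were lower in all 4 pairs. In the limma fit over all probesets 8 of 8 genes passed an adjusted p of 0.05 as lower, where 6.88% of all probesets did. Since the genes were taken from a list of such changes, nothing is read from these counts. Without both arrays of mouse 1, 5 of the 8 passed, the lost ones being Chaf1b, Actl6a and H1f5, and 1.83% of all probesets then passed as lower. Without mouse 3, Actl6a and H1f5 did not pass and 4.11% of all probesets did, and without the pool, H1f1 and H1f5 did not pass and 3.22% of all probesets did. With mouse or pool as a replicate block 8 of 8 passed as lower, where 9.87% of all probesets did, and 3929 probesets (16.8%) were called in either direction, against 2479 (10.6%) without the block.

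The median log2 difference of the 8 genes was -1.30, against 0.04 over all probesets and -1.24 over the 374 probesets that the authors' deposited table holds as lower. Among those 374, ordered from the largest decrease, Hells ranked 2 and Uhrf1 ranked 25, and the others lay between rank 119 (Nasp) and rank 251 (Chaf1b). The table begins at 2.00-fold. Chaf1b, at 2.22-fold, is the gene closest to that limit. Outside the table, 143 unnamed probesets were lower at least 2-fold on average, the farthest by a log2 difference of -1.96. In these sorted populations, fewer cells that express a gene and less of its RNA per cell cannot be told apart.

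**Figure D1:**
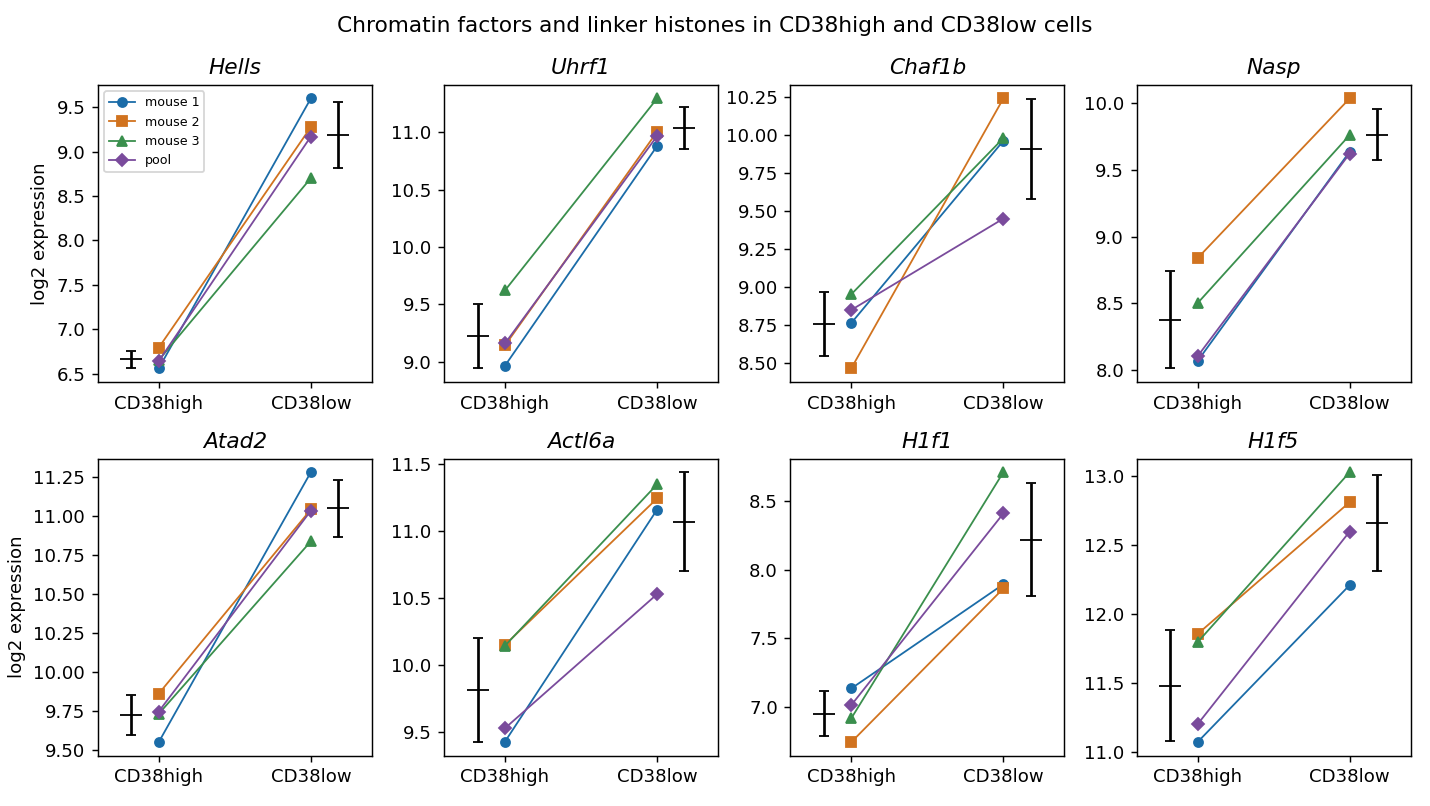
Log2 expression (vertical axis, a separate range in each panel) of the 8 genes in the CD38high and CD38low fraction of mouse 1, mouse 2, mouse 3 and the pool. Lines join the fractions of 1 source, and black marks give the mean ± SD of 4 arrays. In every panel all CD38high values lie below all CD38low values.

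Both linker histone genes lie in the histone cluster of chromosome 13 and were lower to a like degree on average. H1f1 was measured at 7.13, 6.74, 6.92 and 7.01 in CD38high cells of mouse 1, mouse 2, mouse 3 and the pool, against 7.89, 7.86, 8.71 and 8.41 in CD38low cells. Its CD38high values sat close to the median of all probesets, and its CD38low values fell into a lower set (mice 1 and 2) and a higher set (mouse 3 and the pool). The means were 6.95 ± 0.17 in CD38high and 8.22 ± 0.41 in CD38low cells (SD, n = 4 each), a log2 difference of -1.27 ± 0.20 (SE) or 2.41-fold. H1f5 was measured at 11.07, 11.86, 11.80 and 11.20 in CD38high cells, against 12.21, 12.81, 13.03 and 12.60 in CD38low cells. Its mean in CD38low cells was above that of 99.3% of the probesets, and its mean in CD38high cells above that of 96.0%. The log2 difference was -1.18 ± 0.24 (SE), or 2.26-fold. H1f5 had the narrowest gap of the 8 genes, 0.35 log2 units between the highest CD38high array (mouse 2) and the lowest CD38low array (mouse 1). The labels state that the first cDNA strand was primed with both poly(T) and random oligomers, so messages without a poly(A) tail could enter the measurement. Of 79 histone genes on a list of core, linker and variant histones, these 2 could be named, and the other 77 could not be located. H1 genes are closely similar to each other, and whether the probes separate them was not tested.

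The promoters of the H1 pair are shown because they share a block of letters that is not in the windows of the other 5 genes with a promoter in the table. The sequences are from RefSeq (GRCm38.p6), cover the 150 bases before the annotated start and run 5′ to 3′ on the strand of the gene. H1f1 is at chr13:23763518-23763667 on the plus strand and H1f5 at chr13:21780626-21780775 on the minus strand. Capitals mark the shared block CACCAATCACAGC, the TATA word TATAAA and, in H1f5, the word AAACACA that is known from H1 promoters.
H1f1: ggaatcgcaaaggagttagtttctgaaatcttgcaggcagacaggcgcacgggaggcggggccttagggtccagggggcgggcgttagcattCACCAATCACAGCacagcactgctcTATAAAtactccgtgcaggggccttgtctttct
H1f5: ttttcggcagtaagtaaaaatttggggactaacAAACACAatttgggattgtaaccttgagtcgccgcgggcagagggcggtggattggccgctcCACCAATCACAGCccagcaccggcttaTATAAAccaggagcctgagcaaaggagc
The block, which holds a CCAAT word, starts 58 bases before the start of H1f1 and 55 before that of H1f5, and TATAAA follows at 33 and 28 bases. The block is the longest run of letters, 13, that the 250 bases before the starts of both genes share, and it was looked for after both promoters had been read. On either strand it occurs in 7 of 32851 promoter windows, each from 250 bases before to 50 after a start (0.0213%), in H1f1, H1f5, H1f6 (another linker histone) and 3 genes that are no histones. TATAAA occurs in 13.6% of all windows and AAACACA in 7.18%, counting both strands.

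Hells, a remodelling ATPase that gives DNA methyltransferases access to nucleosomal DNA, showed the largest difference. It was measured at 6.56, 6.79, 6.65 and 6.64 in CD38high cells of mouse 1, mouse 2, mouse 3 and the pool, against 9.60, 9.27, 8.70 and 9.17 in CD38low cells. The CD38high values lay within 0.23 log2 units of each other and below the median of all probesets on each array, while the CD38low values spread over 0.90. The means were 6.66 ± 0.10 in CD38high and 9.19 ± 0.37 in CD38low cells (SD, n = 4 each), a log2 difference of -2.53 ± 0.18 (SE). Within the pairs the fold ran from 4.14 in mouse 3 to 8.23 in mouse 1. Values this low on an array can understate a fold, and background intensities were not used here.

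Uhrf1, which binds hemimethylated DNA and brings the maintenance methyltransferase to it, was second among the 8. It was measured at 8.97, 9.14, 9.62 and 9.16 in CD38high cells, against 10.88, 11.01, 11.30 and 10.97 in CD38low cells. Mouse 3 was the highest in both fractions and mouse 1 the lowest. The difference within pairs was the most even of the 8 genes, from -1.92 to -1.67, with an SD of 0.10 over the 4 pairs. The mean log2 difference was -1.81 ± 0.16 (SE), or 3.52-fold.

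Promoter letters are shown for Hells and Uhrf1 because only these, among the 7 genes with a promoter in the table, hold an E2F word. The words searched on both strands were TTTCGCGC, TTTCCCGC, TTTGGCGC and TTTGCCGC. Each line gives 30 bases from RefSeq (GRCm38.p6) with the word in capitals, chr19:38930917-38930946 for Hells and chr17:56304117-56304146 for Uhrf1, both on the plus strand.
Hells: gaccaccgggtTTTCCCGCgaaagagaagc
Uhrf1: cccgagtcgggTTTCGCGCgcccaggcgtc
The word starts 62 bases before the annotated start of Hells and 185 before the second of 2 annotated starts of Uhrf1. An E2F word occurs in 2 of the 8 windows of these genes and in 2.26% of the 32851 windows. Each of the 4 words holds the letters CG. The Hells window held CG 34 times and the Uhrf1 window with the word 33 times, where the median over all windows was 7. The Chaf1b window held CG 30 times and no E2F word. The part of CG content in these matches was not tested. A match is a run of letters and not a binding site, and a missing word says only that these letters are not in this window. The windows also differed in composition. G and C made up 65.7% of the Hells window, 70.3% of the Chaf1b window and 63.7% of the Actl6a window. The share was 58.3% and 68.3% in the 2 Uhrf1 windows, 52.0% for H1f1, 46.3% for H1f5 and 48.3% for Nasp. The median over all windows was 52.7%. CCAAT on either strand was found for Uhrf1, Nasp, H1f1 and H1f5, and in 37.4% of all windows. TATAAA was found in H1f1 and H1f5 and in none of the other 5 genes with a window.

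The histone chaperones come next. Chaf1b is the middle subunit of CAF-1, the complex that places new H3 and H4 on DNA behind the fork. It was measured at 8.76, 8.47, 8.95 and 8.85 in CD38high cells of mouse 1, mouse 2, mouse 3 and the pool, against 9.96, 10.24, 9.98 and 9.45 in CD38low cells. Its difference was the most uneven of the 8. The fold was 1.52 in the pool, whose CD38low value was the lowest, and 3.42 in mouse 2, which had the lowest CD38high and the highest CD38low value. The mean log2 difference was -1.15 ± 0.18 (SE), or 2.22-fold. Nasp binds free H3 and H4 and keeps a reserve of them. It was measured at 8.07, 8.84, 8.50 and 8.10 in CD38high cells, against 9.64, 10.04, 9.76 and 9.62 in CD38low cells. Mouse 2 was the highest in both fractions, and the pair differences ran from -1.57 to -1.20. The mean log2 difference was -1.39 ± 0.19 (SE), or 2.61-fold.

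Atad2 is an AAA ATPase with a bromodomain that binds acetylated histones on newly replicated chromatin and is known as a coactivator of E2F and MYC. It was measured at 9.55, 9.86, 9.73 and 9.74 in CD38high cells, against 11.28, 11.04, 10.84 and 11.03 in CD38low cells. The groups were 0.98 log2 units apart at their closest arrays. The mean log2 difference was -1.33 ± 0.11 (SE), or 2.51-fold, and mouse 1 showed the largest difference (-1.73). Actl6a, also called BAF53A, is an actin-related subunit of the BAF and INO80 remodelling complexes and of the TIP60 acetyltransferase complex. It was measured at 9.43, 10.15, 10.14 and 9.53 in CD38high cells, against 11.16, 11.24, 11.35 and 10.53 in CD38low cells. The pool was low in both fractions, and its CD38low value was within 0.38 log2 units of the highest CD38high value. The mean log2 difference was -1.26 ± 0.24 (SE), or 2.39-fold. Actl6a was the 1 named gene among 43 on a list of subunits of the complexes it belongs to, so nothing can be said here of its partners.

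The arrays of 1 fraction differed from each other in ways that the choice of the genes did not fix. After the mean of its fraction was taken from each array, Hells and Atad2 deviated together (Pearson's r = 0.91, Spearman's rho = 0.83 over 8 arrays), and H1f1 deviated against Hells (r = -0.89, rho = -0.86) and against Atad2 (r = -0.81, rho = -0.71). Among CD38low arrays, Hells and Atad2 were highest in mouse 1 and lowest in mouse 3, where H1f1 was highest. The pair differences of Hells and H1f1 ran in opposite order in the mice: in mouse 1 they were -3.04 and -0.76, in mouse 2 -2.48 and -1.12, and in mouse 3 -2.05 and -1.79. The pool had -2.53 for Hells and -1.40 for H1f1. The linker histone genes H1f1 and H1f5 had an r of 0.11 (rho = 0.10) with each other. Nasp, Actl6a and H1f5 also deviated together, with r between 0.69 and 0.79 over their 3 pairs. They were no set apart, since Uhrf1 had an r of 0.72 with H1f5 and 0.58 with Actl6a, though 0.31 with Nasp, and the r of Actl6a with H1f5 was 0.55 without mouse 3. Nasp, Actl6a and H1f5 were high in CD38high cells of mice 2 and 3 and low in those of mouse 1 and the pool. Over all 28 pairs of the 8 genes the median r was 0.07, with 17 pairs above 0, beside a median of 0.27 over the pairs of the 354 other named lower genes. The 8 arrays come from 4 sources and are not independent, the extreme pairs were picked from 28, and these correlations are descriptions.

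**Figure D2:**
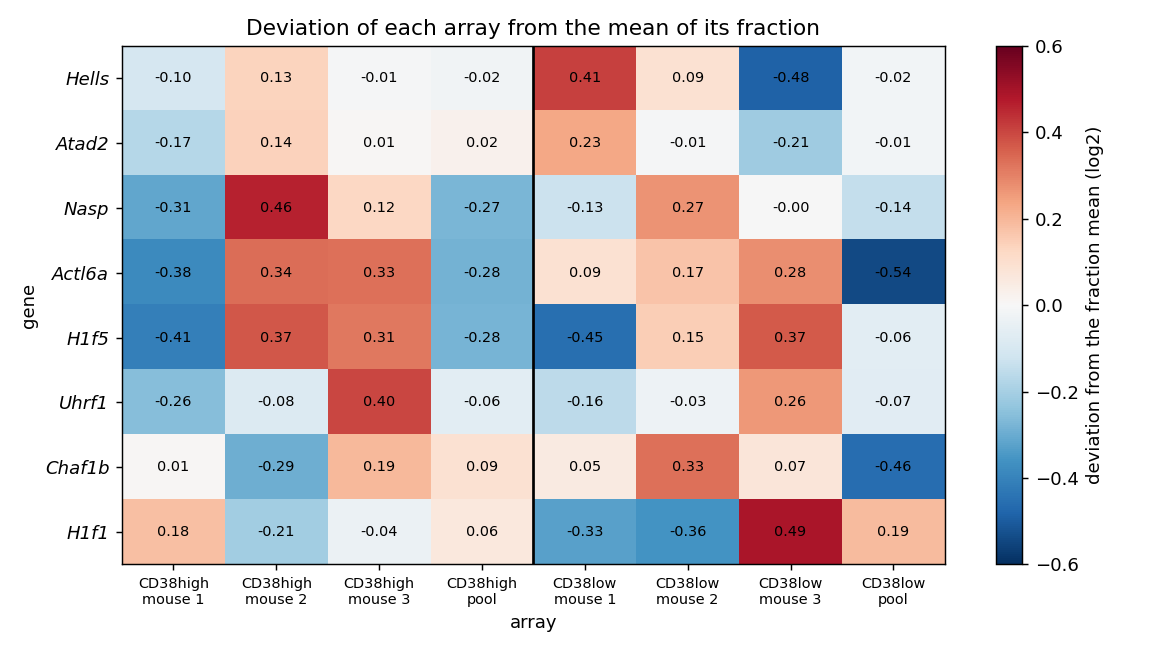
Deviation of each array from the mean of its fraction (log2 units, colour and printed value) for the 8 genes (rows) in 4 CD38high and 4 CD38low arrays (columns). Hells and Atad2 are high in the CD38low cells of mouse 1 and low in those of mouse 3, where H1f1 is high. Nasp, Actl6a and H1f5 are high in CD38high cells of mice 2 and 3.

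Further chromatin genes were looked up on a list of 68, grouped here as linked to replication. Hells, Uhrf1, Chaf1b, Nasp and Atad2 are 5 of the genes on this list. The other named genes on it numbered 12, and 51 could not be located. In the limma fit over all probesets 17 of 17 named genes were called lower and 0 higher (6.88% of all probesets were called lower), with a median log2 difference of -1.33 (0.04 over all probesets). Without mouse 1, without mouse 3 and without the pool, 14, 16 and 15 of the 17 were called lower, where 1.83%, 4.11% and 3.22% of all probesets were. Names come only from the authors' list of changes, so this count is fixed by that list, and an unnamed gene is not shown to be unchanged. Mcm2, a helicase subunit that also holds parental H3 and H4, had the largest difference of the 12 (8.53 ± 0.18 in CD38high and 10.54 ± 0.18 in CD38low cells, SD, n = 4 each, 4.03-fold lower). Set, a histone chaperone, was 3.20-fold lower, and Cdca7l, a relative of the Hells partner Cdca7, was 3.17-fold lower. Chaf1a, the large subunit of CAF-1, was 2.65-fold lower, beside 2.22-fold for its partner Chaf1b. Hat1, which acetylates new H4, was 2.64-fold lower, and Hdac2, a histone deacetylase, 2.48-fold lower. The remaining 6 were Mms22l, Ssrp1 (a subunit of the FACT chaperone), Hmgn5, Asf1a (a chaperone of H3 and H4), Smarcad1 and Suv39h2. Their log2 differences lay between -1.29 and -1.00. The groups did not overlap for any of the 17, of which the closest was Smarcad1 with a gap of 0.39 log2 units, and 9.37% of all probesets had no such overlap in this direction.

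**Figure D3:**
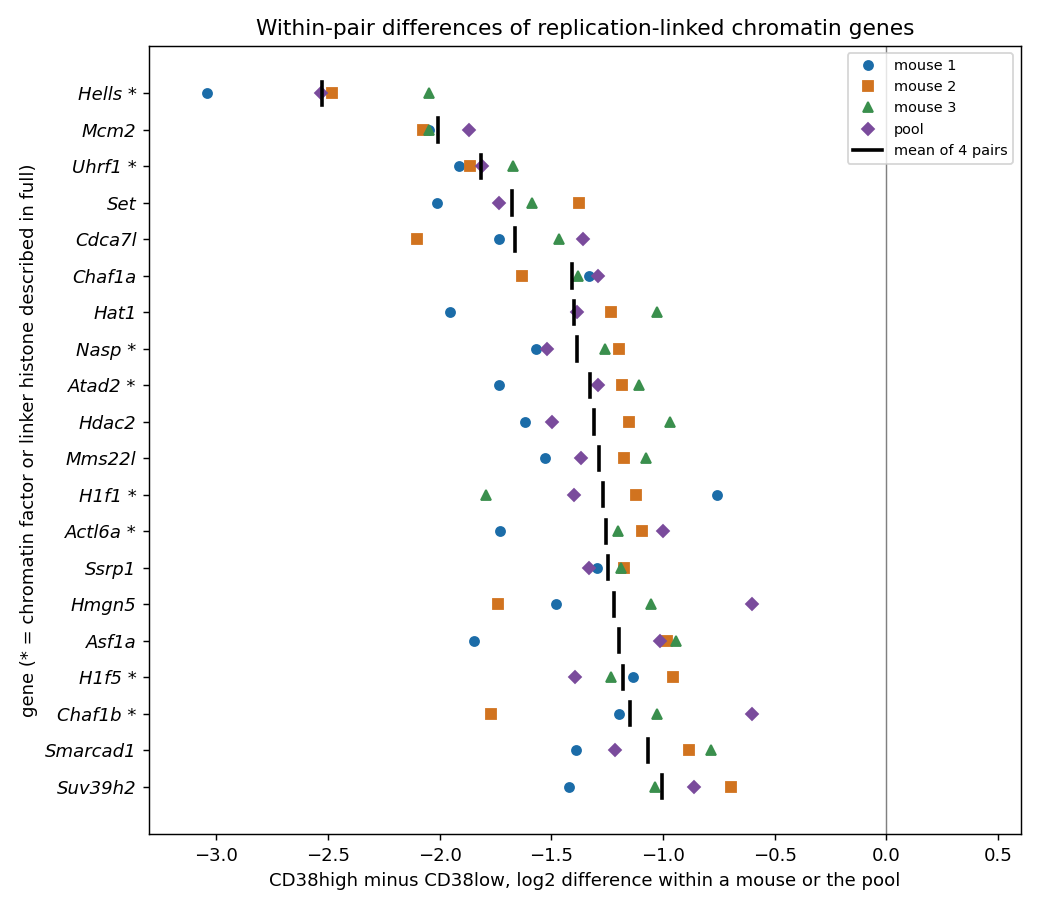
CD38high minus CD38low log2 difference (horizontal axis) within mouse 1, mouse 2, mouse 3 and the pool for the 8 genes (starred) and the 12 other named genes of the chromatin list, ordered by their mean (black bar). All points lie left of 0. Hells has the largest mean difference, -2.53, and H1f1 is the starred gene with its smallest difference in mouse 1.

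By level over the 8 arrays, the named genes most like the mean of the 8 were Ctsg (cathepsin G, Pearson's r = 0.998), Mcm6 (0.998), Ccne1 (cyclin E1, 0.996), Mcm10 (0.995) and Rad54l (0.995), out of 474 other named genes. The gap between the fractions sets most of such a value. With the fraction means removed, the most alike were Tnfsf13 (0.965), Map3k20 (0.960), Ddost (0.950), Fbxo5 (0.945) and Mcm7 (0.938). These are the highest of 474 over 8 arrays that come from 4 sources, and they are descriptions. The 8 genes had a median r of 0.07 over their own pairs, so likeness to their mean is not likeness to each gene. Ctsg averaged 10.56 ± 0.29 in CD38high and 12.95 ± 0.15 in CD38low cells (SD, n = 4 each), and Tnfsf13 averaged 8.33 ± 0.64 in CD38high and 10.41 ± 0.32 in CD38low cells. Ctsg encodes a protease of the granules that granulocyte precursors make, and Tnfsf13 the cytokine APRIL.

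Marker genes of cell types, the granulocyte lineage among them, were looked up in the same contrast. Names come only from the authors' list of changes, so each marker that could be named had to differ. An unnamed marker is not shown to be unchanged, and nothing is read from the counts. Of 8 genes on a list of primary granule and other granulocyte precursor genes, 5 could be named (Ctsg, Ms4a3, Prtn3, Mpo and Elane). All 5 were called lower in CD38high cells (median log2 difference -2.10), where 6.88% of all probesets were. The largest were Ctsg (-2.39), Ms4a3 (-2.13) and Prtn3 (-2.10). Of 11 mature neutrophil genes 2 could be named, and both were called higher, where 873 of 23332 probesets were. Il1rn was higher by 1.54 and Fpr1 by 1.19 on the log2 scale. The B cell gene Cd79a lay between 7.99 and 9.75 in CD38high and between 6.45 and 7.33 in CD38low cells, and the T cell list gene Ccr7 between 7.58 and 8.08 in CD38high and between 6.30 and 6.95 in CD38low cells. The NK cell list gene Nkg7 lay between 8.86 and 10.29 in CD38high and between 11.61 and 12.50 in CD38low cells, and the dendritic cell list gene Mgl2 between 5.66 and 6.34 in CD38high and between 8.22 and 8.89 in CD38low cells. Myc, on the progenitor list, was lower by a log2 difference of -1.00. These were the named genes of 6, 7, 6, 8 and 6 listed, and 0 of 8 monocyte and 0 of 6 erythroid genes could be named. The part of these cell types in the differences of the chromatin genes was not tested.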

How the data were processed

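Per the labels' protocols, RNA of sorted cells was amplified by T7 transcription, converted to cDNA, labelled with biotin and hybridised. The authors deposited log2 expression values per probeset. Affymetrix Power Tools, RMA, PLIER and the build mm9 are named in the submitters' processing notes. Which of RMA and PLIER was used, and the annotation, is not given in the sources used here. Scanner intensities and scan dates were not used here. The study design gives an unpaired two-sample test with 10000 permutations, a p limit of 0.001 and a minimum of 2-fold.

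The 498 listed probesets each matched a single one of the 23332 value rows in all arrays (to 5 decimals), which named 484 probesets of 482 genes. Symbols were updated by RefSeq accession (476 rows), symbol (3) or synonym (4) in a GRCm38.p6 table, and 1 was kept. Groups come from the sample titles. CD38high minus CD38low was fitted with limma 3.58.1 (R 4.3.3, lmFit and eBayes, no block, Benjamini-Hochberg over all probesets, threshold 0.05), tested on simulated data. SE is limma's moderated standard error. Fractions of a mouse or the pool come from the same animals, so the replicate block is given too. Their deviations from the fraction means correlated at 0.345 to 0.675, against -0.577 to 0.0998 for other arrays of opposite fractions. Part of this contrast is built in. Taking out the fraction means pushes the values of other arrays down where those of the same source are positive. Arrays limit the precision by their number, 4 a fraction.

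The 8 genes, the gene lists and the settings were chosen with earlier results of these data known. The rule for other named genes took up to 6 non-member genes of largest difference from the chromatin list, up to 3 from each other list, Cd38, and the 5 genes most like the 8 by each measure. Remaining genes of lists were named after their values were seen. For a gene with several probesets the one with the highest mean was used. Promoters were those of RefSeq for 7 of the 8 genes. Python 3.11.15, pandas 2.3.3, numpy 2.4.6 and matplotlib 3.10.9 were used.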

Additional observations from a re-analysis of the deposited data

Results flagged for a closer look

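Dixon's test for a single outlying array was applied to 16 groups of 4 arrays, the 8 genes in each fraction. It marked 0 of the 16 groups, where chance marks about 5%.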

How the results depend on the processing

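Some settings left out a mouse, the pool, an array or dim probesets. Others used a fixed or random replicate block, quantile or median scaling, trended robust eBayes or an unpaired t-test with pooled variance. This t-test is not the authors' test, which had 10000 permutations, a p limit of 0.001 and a minimum of 2-fold. Under these 19 settings each of the 8 genes stayed lower in CD38high cells, by 1.92-fold to 6.44-fold. This direction could not change when arrays were left out, since in these 8 genes the fractions did not overlap. The contrast had also chosen the genes, so nothing is read from the constant direction. In 151 of 152 recomputed differences the value moved by less than the SD over the 4 pairs. The exception was Uhrf1 without the CD38high array of mouse 3 (-1.95). The count of 151 was partly fixed beforehand. The replicate blocks, the filter of dim probesets, trended robust eBayes and the t-test cannot change a difference. Leaving out a mouse or the pool cannot move it by as much as that SD. The number of the 8 genes called lower was 5 to 8 when a mouse, the pool or an array was left out, with 5 without mouse 1, while 1.83% (without mouse 1) to 6.36% of all probesets were called lower. H1f5 was also lost without the CD38high array of mouse 1 or the pool, where 3.57% and 4.17% of all probesets were called lower. H1f5 was lost too without the CD38low array of mouse 3 (4.93%) and in the pooled-variance t-test (4.51%). With the replicate block, which pairs the fractions of a source, 8 of 8 were called lower, where 9.87% of all probesets were. Nothing is read from these counts of the 8, since this contrast chose them. The replicate block gave 3929 probesets in all and 1626 higher, and the random replicate block 3840 and 1514. The pooled-variance t-test gave 1598 probesets after Benjamini-Hochberg, 545 higher and 1053 lower. Leaving out a mouse, the pool or an array gave 540 to 2436 probesets, 113 to 953 higher and 427 to 1483 lower, with fewer arrays in each fit, and the lowest count was without mouse 1. The correlation of deviations lay between 0.87 and 0.95 for Hells with Atad2, between -0.97 and -0.74 for Hells with H1f1, between -0.96 and -0.55 for Atad2 with H1f1, between 0.75 and 0.83 for Nasp with Actl6a, between 0.76 and 0.92 for Nasp with H1f5 and between 0.55 and 0.90 for Actl6a with H1f5, over median and quantile scaling and the fits without a mouse or the pool. Limiting the promoter search to the bases upstream of the start changed no count of the 7 genes. Precision is limited by 4 arrays a fraction, and Hells and H1f1 lay near the median of all probesets in CD38high cells.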
